A study of Populus alba x Populus glandulosa with 12 samples.

Results

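Oxylipin and jasmonate synthesis was followed here through 102 of the 85392 gene models in a table of leaf transcript levels from 84K poplar, the hybrid Populus alba x Populus glandulosa. The members are the genes whose pathway annotation holds the entry alpha-linolenic acid metabolism and holds neither fatty acid degradation nor peroxisome. Of 151 genes with the first entry, 49 were left out by that rule, namely 19 acyl-CoA oxidases (ACOX), 16 thiolases (ACAA1), 7 multifunctional proteins (MFP2) and 7 alcohol dehydrogenases (ADH1). The rule reads annotation alone, although the group was taken up with earlier results of these data known.

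All plants were wild type and all samples were leaf. They fall into 4 groups by length of drought, sampled at day 0, which the labels also mark as the control, and on days 3, 6 and 9, with 3 libraries each and 12 in all. Well-watered plants of days 3, 6 and 9 are not among the samples, so drought cannot be told apart from the passing of time. Each day also has its own batch label, and the effects of batch and day cannot be told apart either. They do not state whether each library is another plant, and p-values measure the spread between these libraries, which may be technical. All 3 comparisons with day 0 share the same control libraries.

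Oxylipins are oxygenated fatty acids that plants make from membrane lipids, above all in the chloroplasts of leaf cells. Lipases release linolenic acid, and a lipoxygenase (LOX2S in the annotation) adds oxygen to it. The hydroperoxide that forms can enter the allene oxide synthase (AOS) branch, in which allene oxide cyclase (AOC) and the reductase OPR lead towards jasmonic acid, a hormone of the wound and stress response. Alternatively, hydroperoxide lyase (HPL) cleaves it into short aldehydes, the green leaf volatiles that give cut grass its smell. AOS and HPL thus draw on the same substrate.

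Levels are FPKM, fragment counts scaled to the length of the gene model and to the size of the library. Changes are differences in log2(FPKM + 1), and the pseudocount of 1 understates the change of genes with low values. A gene was tested where it reached an FPKM of 1 in at least 3 of the 12 libraries, which 40736 genes and 58 of the 102 members did. A gene was called higher or lower at an adjusted p under 0.05 in a limma fit over all tested genes. The 44 untested members had FPKM values of 1.16 or less in every library, and 11 of them were listed at 0 in all. Gene names are the KEGG orthology names that the table attaches to each gene model. IDs hold the letter A (55 members) or B (47 members) and a chromosome number. The table does not say which models are copies of each other, and near-identical copies can share fragments, so the split between neighbouring or similar models is uncertain.

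On day 3 the summed transcript level of the members stood at its highest. Their summed FPKM was 1197 ± 10.6 (SD, n = 3) at day 0, 2141 ± 10.3 at day 3, 1237 ± 13.1 at day 6 and 1207 ± 85.6 at day 9. Lipoxygenase made up 25.0% of that sum at day 0, 37.4% at day 3, 21.7% at day 6 and 22.3% at day 9. The day 3 sum was above those of the other days by far more than the spread between libraries. With each library divided by its median-of-ratios factor, the ratio of the sum to that of day 0 was 1.79 at day 3, 1.25 at day 6 and 1.17 at day 9, so the later sums then lay above day 0. Most of the rise at day 3 lay in a few abundant models. Means went from 65.0 to 375 FPKM for the LOX2S model Pag.B01G000230.v3.1 and from 104 to 323 for the AOC model Pag.B04G001055.v3.1. The sums of lipoxygenase, HPL, AOC and OPCL1 all had their highest mean at day 3, whereas AOS, ketol reductase and jasmonate methyltransferase had theirs at day 9. Phospholipase A1 LCAT3 and phospholipase A2 were highest at day 0, and the triacylglycerol lipase TGL4 and OPR at day 6.

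**Figure D1:**
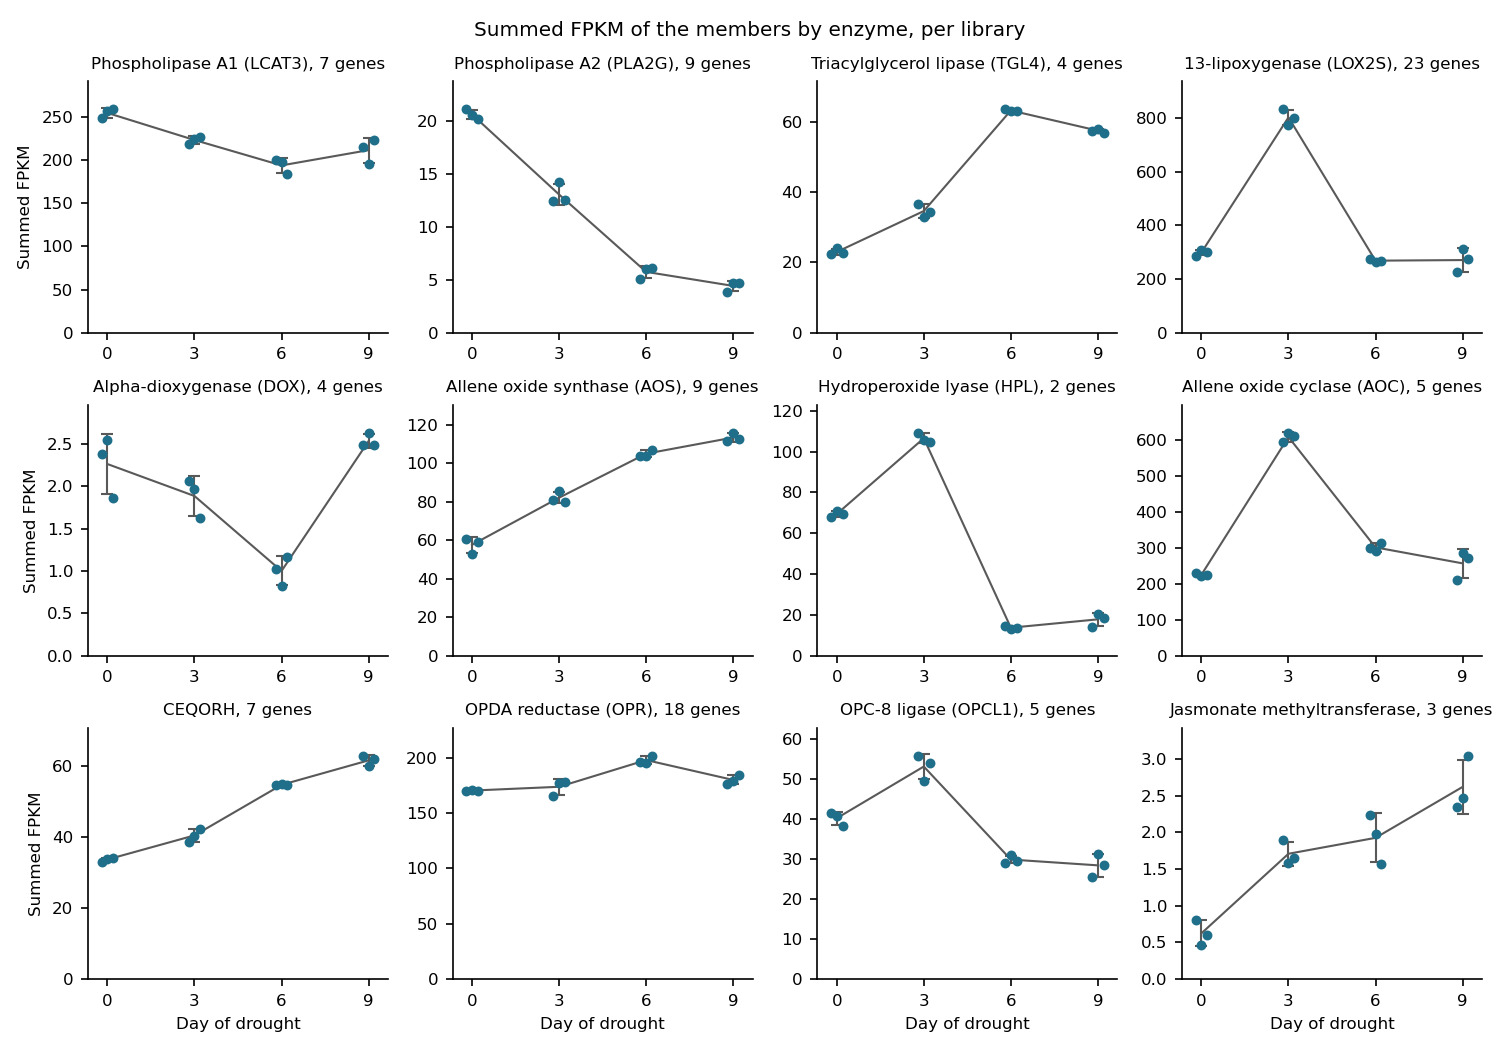
Summed FPKM of the members of each enzyme in each library, against days of drought. Points are the 12 libraries, lines join the means of 3 libraries and bars are SDs; lipoxygenase and AOC peaked at day 3, HPL was low on days 6 and 9, and AOS was higher on each later day.

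Gene by gene, 39 of the 58 tested members, 67.2%, differed between days 3 and 0, against 47.7% of all tested genes. Of these, 26 rose, where 22.6% of all tested genes did, and 13 fell, where 25.2% did. On day 6, 25 members were higher than at day 0 and 26 lower, and the shares among all tested genes were 29.2% and 47.6%, or 76.8% called in all. On day 9, 26 were higher and 24 lower, against 30.9% and 46.0% of all tested genes, or 76.9% called in all. The median change of the tested members was 0.17 at day 3, -0.01 at day 6 and 0.04 at day 9, beside -0.01, -0.21 and -0.18 for all tested genes.

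The balance of rises and falls on days 6 and 9 depended on how libraries were scaled. With each library divided by its median-of-ratios factor, the median of all genes moved from -0.21 to 0.01 at day 6 and from -0.18 to 0.00 at day 9. The share of higher calls among all genes called then moved from 38.0% to 50.5% at day 6 and from 40.2% to 50.1% at day 9. Among the members the split at day 6 became 27 higher and 23 lower, and at day 9 it became 29 higher and 20 lower. The split at day 3 was 26 and 13 under both scalings.

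The tested members took different courses. Of the 58, 18 rose on all 3 days, 11 fell on all 3, and 5 rose at day 3 and fell on days 6 and 9. No member was called in opposite directions on days 6 and 9, and 51 had the same call on both. Only 3 members were called on none of the 3 days by this limma fit, all of them LCAT3 models with chromosome number 12. The shares of these patterns among all tested genes were not computed, so the counts only describe the members. Among all tested genes, 21.7% differed between days 6 and 9.

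**Figure D2:**
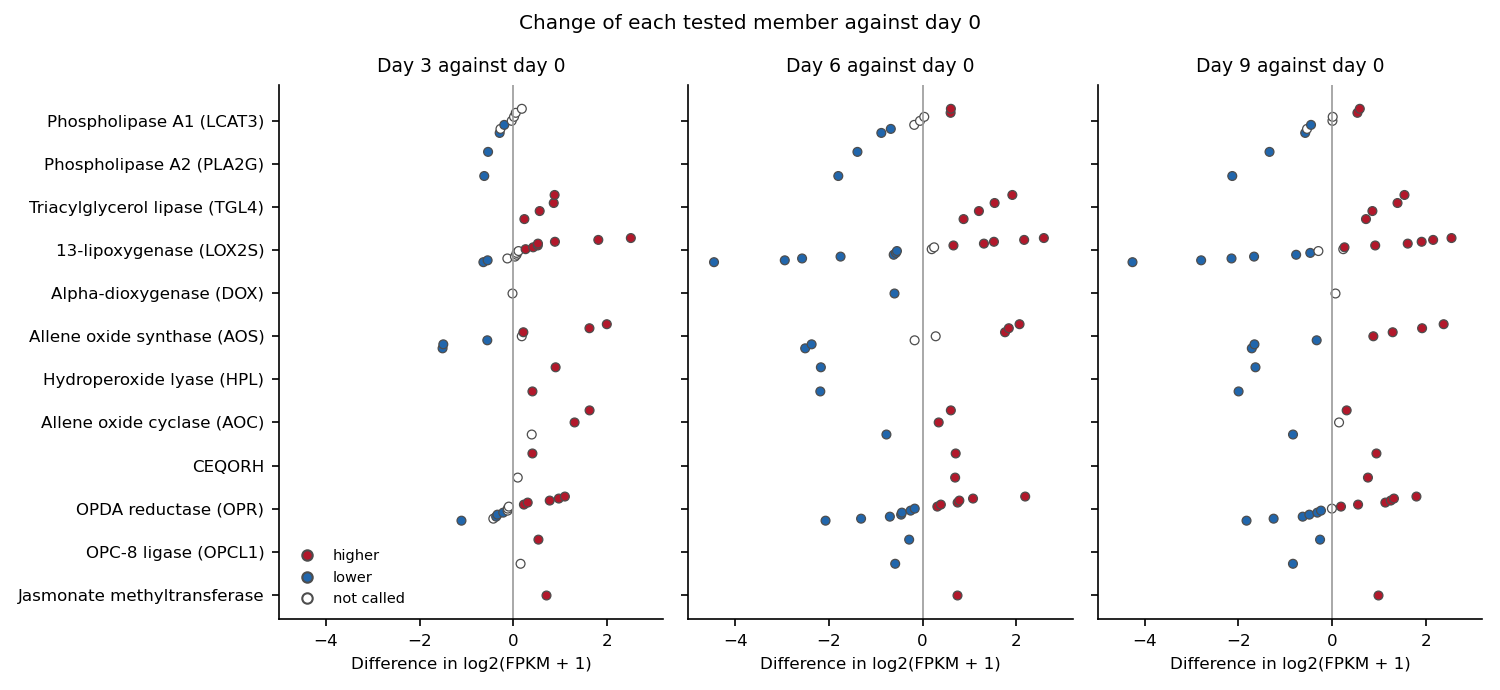
Difference in log2(FPKM + 1) from day 0 on days 3, 6 and 9 for each of the 58 tested members, grouped by enzyme. Red points were called higher, blue lower and white ones neither by limma at an adjusted p under 0.05; the 2 HPL models cross from higher at day 3 to lower on days 6 and 9, and all 4 TGL4 models stay above 0.

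Among the lipases, the TGL4 models rose together and the phospholipase A2 models fell together. TGL4 is the name of a triacylglycerol lipase known from yeast, where it works on lipid droplets. Its 4 models were all tested and all rose on each of the 3 days, and their summed FPKM went from 23.0 ± 0.882 at day 0 to 34.6 at day 3, 63.3 at day 6 and 57.5 at day 9. The most changed on days 3 and 6 was Pag.A16G001068.v3.1, with FPKM values of 2.70, 2.60 and 2.27 at day 0, 6.15, 4.90 and 5.49 at day 3, 11.85, 12.51 and 12.45 at day 6, and 8.37, 8.47 and 7.96 at day 9. The libraries of the 4 days did not overlap, and the order was day 0, 3, 9 and 6. Its change from day 0 was 0.88 (SE 0.08) at day 3, 1.91 (SE 0.08) at day 6 and 1.40 (SE 0.08) at day 9, with limma adjusted p-values of 1.94e-06, 4.61e-10 and 8.21e-09. Pag.A06G002670.v3.1, the most abundant, had means of 8.21, 12.6, 25.7 and 25.8 FPKM on the 4 days and rose by 1.54 (SE 0.06) at day 6. Its rise at day 9, also 1.54 (SE 0.06), was the largest of the TGL4 models that day in log2(FPKM + 1). Pag.B16G001086.v3.1 was highest at day 6, at 5.07 ± 0.140 FPKM, against 1.64 ± 0.130 at day 0.

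Secretory phospholipase A2 frees a fatty acid from the middle position of a phospholipid. Of its 9 models 2 were tested, and both fell on all 3 days, while 6 were listed at 0 in every library. Pag.A18G000272.v3.1 had FPKM values of 16.34, 16.00 and 16.98 at day 0, 10.19, 11.19 and 9.75 at day 3, 4.12, 3.73 and 4.18 at day 6, and 2.30, 3.13 and 3.63 at day 9. Each later day lay below the one before it without overlap, and the change from day 0 was -0.62 (SE 0.11), -1.80 (SE 0.11) and -2.13 (SE 0.11). The limma adjusted p-values were 0.000503, 1.67e-08 and 3.6e-09. The other tested model, Pag.B18G001361.v3.1, fell by 1.39 (SE 0.16) at day 6. Its call at day 3 (-0.54, limma adjusted p = 0.0189) was lost with a pseudocount of 0.1 and on leaving out any 1 of 3 libraries.

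LCAT3, a phospholipase A1 that cleaves the outer position, carried the highest level among the lipases, and its models split by chromosome number. All 7 were tested, of which Pag.A15G000258.v3.1 also carries a second name, SQLE. The pair on chromosome 8 fell. Pag.B08G001695.v3.1 had a mean of 140 ± 6.88 FPKM at day 0, 115 at day 3, 87.4 at day 6 and 103 at day 9, and fell by 0.68 (SE 0.08) at day 6. Pag.A08G001774.v3.1 fell by 0.88 (SE 0.06) at day 6, and its call at day 3, a change of -0.19 at a limma adjusted p of 0.0289, was lost when any 1 of 5 libraries was left out. The pair on chromosome 15 changed the other way and only from day 6. Pag.B15G000302.v3.1 had 13.5 FPKM at day 0, 13.2 at day 3, 21.0 at day 6 and 20.8 at day 9, and Pag.A15G000258.v3.1 had 14.6, 15.2, 22.7 and 21.7 FPKM. Both rose by 0.60 at day 6, with SEs of 0.06 and 0.05. The 3 models on chromosome 12 were called in none of the 5 comparisons, with a lowest limma adjusted p of 0.0611. Across the alternatives the lowest was 0.0037, for Pag.A12G002202.v3.1 at day 6 against day 3. DAD1, a phospholipase A1 of chloroplasts that acts in jasmonate synthesis of Arabidopsis anthers, had 6 models and none was tested, since the highest FPKM among them was 0.22. The most abundant of them over the 12 libraries, Pag.B14G000425.v3.1, had a mean of 0.113 FPKM at day 0.

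Lipoxygenase transcripts rose at day 3 in the models with the highest levels. LOX2S is the plastid enzyme that oxygenates linolenic acid at the carbon from which jasmonate and green leaf volatiles derive. Summed over its 23 models, FPKM was 299 ± 10.8 at day 0, 802 ± 28.6 at day 3, 268 ± 5.38 at day 6 and 270.3 ± 43.8 at day 9. The day 3 sum was 2.68-fold that of day 0. Under median-of-ratios scaling the ratio to day 0 was 1.09 at day 6 and 1.05 at day 9, against 0.898 and 0.905 for the values as deposited. Of the 14 tested models, 7 rose and 2 fell at day 3, 5 rose and 7 fell at day 6, and 6 rose and 6 fell at day 9.

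The models with the highest levels on days 0 and 3 sit close together by their IDs, within each letter, at the start of chromosome 1. There 4 models with the letter A (serial numbers 341 to 354) and 3 with the letter B (228 to 230) held 85.4% ± 1.27 of all LOX2S FPKM at day 0 and 92.5% ± 0.204 at day 3. IDs with different letters are not neighbours, and the models of both letters together are called the cluster here. On days 6 and 9 they held 49.2% ± 0.779 and 48.8% ± 7.39. Their summed FPKM was 255 ± 12.6, 742 ± 27.6, 132 ± 4.63 and 134 ± 40.8 on the 4 days.

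The most abundant member of this cluster, Pag.B01G000230.v3.1, had FPKM values of 61.03, 68.69 and 65.41 at day 0 and 389.56, 361.94 and 374.23 at day 3. It had 80.05, 74.14 and 77.51 at day 6, and 49.07, 109.92 and 83.89 at day 9. The day 3 libraries lay far above all others, the day 6 libraries slightly above day 0, and those of day 9 spread on both sides of day 0. The rise at day 3 was 2.51 (SE 0.23, limma adjusted p = 1.4e-05). On days 6 and 9 the model was not called. Its change was 0.25 at day 6 (limma adjusted p = 0.352, and 0.00359 to 0.524 across the alternatives). At day 9 it was 0.24 (limma adjusted p = 0.365, and 0.000407 to 0.937 across the alternatives). Leaving out the second library of day 9 turned that last change to -0.02.

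Other models of the cluster took other courses. Pag.A01G000354.v3.1, named after its values were seen, had means of 68.1 ± 3.00, 242 ± 8.43, 44.0 ± 1.12 and 40.1 ± 8.02 FPKM on the 4 days. It rose by 1.82 (SE 0.11) at day 3 and was lower than at day 0 by day 6, with a change of -0.62 (SE 0.11, limma adjusted p = 0.000307). Pag.B01G000229.v3.1, next in order to Pag.B01G000230.v3.1, had FPKM values of 47.25, 50.55 and 51.69 at day 0, 70.41, 64.02 and 67.38 at day 3, 5.92, 5.35 and 5.56 at day 6, and 5.22, 7.47 and 6.44 at day 9. Its groups overlapped only between days 6 and 9. The rise at day 3 was 0.43 (SE 0.09, limma adjusted p = 0.00274), and the change from day 0 was -2.94 (SE 0.09) at day 6 and -2.80 (SE 0.09) at day 9.

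The deepest fall among members with a mean of at least 5 FPKM on one of the days compared was that of Pag.A01G000345.v3.1. It had FPKM values of 45.98, 50.84 and 47.50 at day 0, 30.65, 30.31 and 30.73 at day 3, 1.51, 0.82 and 1.46 at day 6, and 1.34, 2.09 and 1.32 at day 9. It was already lower at day 3, when Pag.A01G000354.v3.1 of the same letter had risen, as had Pag.B01G000229.v3.1 and Pag.B01G000230.v3.1. The change was -0.64 (SE 0.13) at day 3, -4.45 (SE 0.13) at day 6 and -4.26 (SE 0.13) at day 9, with limma adjusted p-values of 0.00183, 3.31e-11 and 5.08e-11. Pag.A01G000347.v3.1, chosen for mention after its values were seen, had 23.9, 25.9, 3.17 and 4.64 FPKM and was called only on days 6 and 9, with changes of -2.57 and -2.15 (SE 0.10 for each).

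**Figure D3:**
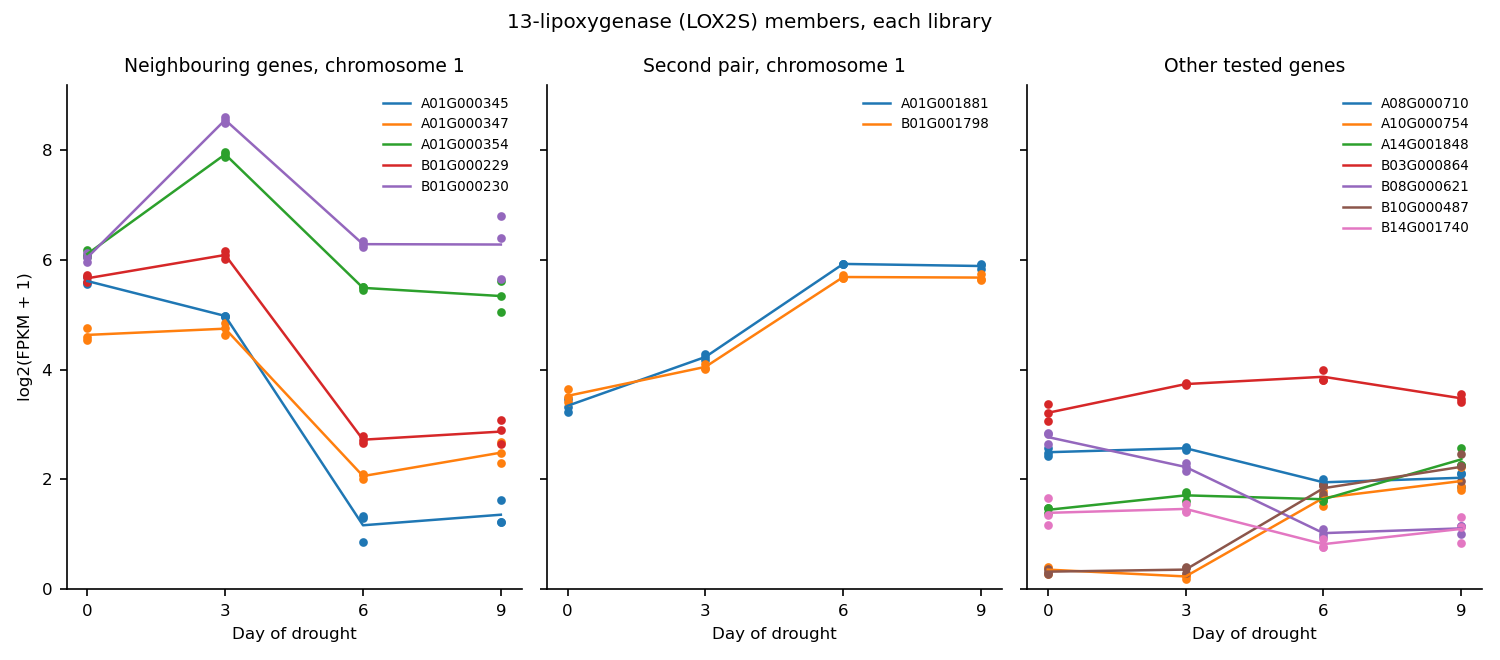
Level of each of the 14 tested LOX2S models as log2(FPKM + 1) in each library, against days of drought, in 3 panels for the cluster at the start of chromosome 1, the second pair on chromosome 1 and the other models. In the first panel Pag.B01G000230.v3.1 and Pag.A01G000354.v3.1 peak at day 3 while Pag.A01G000345.v3.1 drops to a low level by day 6; both models of the second pair climb to day 6 and stay there.

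A second pair of LOX2S models on chromosome 1 rose from day 3, more steeply between days 3 and 6, and stayed up at day 9. Pag.A01G001881.v3.1 had FPKM values of 8.42, 9.01 and 10.04 at day 0, 18.57, 17.14 and 17.70 at day 3, 60.10, 59.66 and 59.98 at day 6, and 56.15, 59.06 and 59.81 at day 9. Days 0, 3 and 6 were separate and days 6 and 9 overlapped. The change from day 0 was 0.89 (SE 0.06), 2.59 (SE 0.06) and 2.55 (SE 0.06), with limma adjusted p-values of 1.4e-07, 2.7e-12 and 3.23e-12. Pag.B01G001798.v3.1 had means of 10.5, 15.6, 50.6 and 50.3 FPKM, and rose by 0.53, 2.17 and 2.16 (SE 0.06 for each). The pair's share of all LOX2S FPKM was 6.59% ± 0.569 at day 0, 4.16% ± 0.0511 at day 3, 41.2% ± 0.319 at day 6 and 40.8% ± 5.56 at day 9. 

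The remaining 7 tested LOX2S models had lower levels. The 2 models with chromosome number 10, Pag.A10G000754.v3.1 and Pag.B10G000487.v3.1, had between 0.14 and 0.32 FPKM on days 0 and 3, and rose by 1.31 and 1.52 at day 6. Pag.B08G000621.v3.1 fell on all 3 days, by 1.75 (SE 0.08) at day 6. Pag.B03G000864.v3.1 rose on all 3 days, by at most 0.66 (SE 0.08). These were named after their values were seen.

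At the branch point the summed levels of AOS and of HPL parted after day 3. HPL was represented by 2 models, 1 with each letter on chromosome 14, and both were tested. Their summed FPKM was 69.4 ± 1.34 at day 0, 107 ± 2.47 at day 3, 13.8 ± 0.716 at day 6 and 17.9 ± 3.25 at day 9. The summed FPKM of the 9 AOS models was 57.6 ± 4.04, 82.1 ± 2.86, 105 ± 1.74 and 113 ± 2.23. The ratio of summed HPL to summed AOS was 1.12, 1.33 and 1.17 in the libraries of day 0 and 1.35, 1.24 and 1.31 in those of day 3. It was 0.140, 0.128 and 0.126 at day 6 and 0.128, 0.178 and 0.166 at day 9. Every library of days 0 and 3 held more HPL than AOS transcript per length, and every library of days 6 and 9 held less. Library scaling cannot alter a ratio taken within a library.

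The less abundant HPL model, Pag.A14G001613.v3.1, had FPKM values of 23.49, 23.66 and 24.54 at day 0, 45.28, 45.53 and 46.08 at day 3, 4.53, 4.62 and 4.42 at day 6, and 5.28, 8.28 and 7.83 at day 9. No 2 days overlapped. It rose by 0.91 (SE 0.11) at day 3 and fell by 2.17 (SE 0.11) at day 6 and by 1.64 (SE 0.11) at day 9 against day 0, with limma adjusted p-values of 4.5e-05, 5.58e-09 and 7.71e-08. Pag.B14G001506.v3.1 had 44.52, 47.02 and 45.06 FPKM at day 0, 63.98, 60.24 and 58.41 at day 3, 10.06, 8.62 and 9.08 at day 6, and 9.02, 12.36 and 10.86 at day 9. Days 6 and 9 overlapped and the others did not. Its change was 0.41 (SE 0.09, limma adjusted p = 0.00292) at day 3, -2.18 (SE 0.09) at day 6 and -2.00 (SE 0.09) at day 9.

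AOS, the cytochrome P450 that commits the hydroperoxide to the jasmonate route, had 7 tested models, of which 3 rose and 3 fell at day 3, 3 rose and 2 fell at day 6, and 4 rose and 3 fell at day 9. Most of its rise lay in a single model, Pag.B09G001096.v3.1. Its FPKM was 13.77, 10.52 and 12.21 at day 0, 50.27, 52.50 and 51.26 at day 3, 53.69, 52.26 and 55.96 at day 6, and 70.90, 66.79 and 64.23 at day 9. Day 0 lay below every other library, days 3 and 6 overlapped, and day 9 lay above all. The rise was 2.00 (SE 0.08) at day 3, 2.07 (SE 0.08) at day 6 and 2.38 (SE 0.08) at day 9, with limma adjusted p-values of 1.74e-09, 2.24e-10 and 6.67e-11. The AOS model with the letter A on chromosome 9, Pag.A09G001049.v3.1, was listed at 0 in 11 libraries and at 0.05 FPKM in 1. That model was named after its values were seen.

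Pag.A04G001502.v3.1, named after its values were seen, also rose early, from 0.35, 0.56 and 0.33 FPKM at day 0 to 2.67, 6.06 and 2.19 at day 3, and was called higher on all 3 days. Pag.B14G000346.v3.1 rose later, and both models of chromosome 2 fell. Pag.B14G000346.v3.1 had 8.07 FPKM at day 0, 9.51 at day 3, 29.6 at day 6 and 21.2 at day 9, with a rise of 1.76 (SE 0.08) at day 6. Its call at day 3 (0.22, limma adjusted p = 0.0439) was lost under 8 alternatives. Pag.A02G001370.v3.1 had 10.33, 10.28 and 10.81 FPKM at day 0, 3.66, 2.85 and 2.78 at day 3, 1.16, 1.19 and 1.31 at day 6, and 2.11, 2.80 and 2.62 at day 9. Pag.B02G001614.v3.1 fell from a mean of 9.87 FPKM to 2.87, 0.94 and 2.44. The changes of the first were -1.49, -2.37 and -1.71 (SE 0.10 for each) and those of the second -1.51, -2.51 and -1.66 (SE 0.20 for each). For both, day 6 lay lowest and day 9 was higher than day 6, by 0.66 and 0.85.

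**Figure D4:**
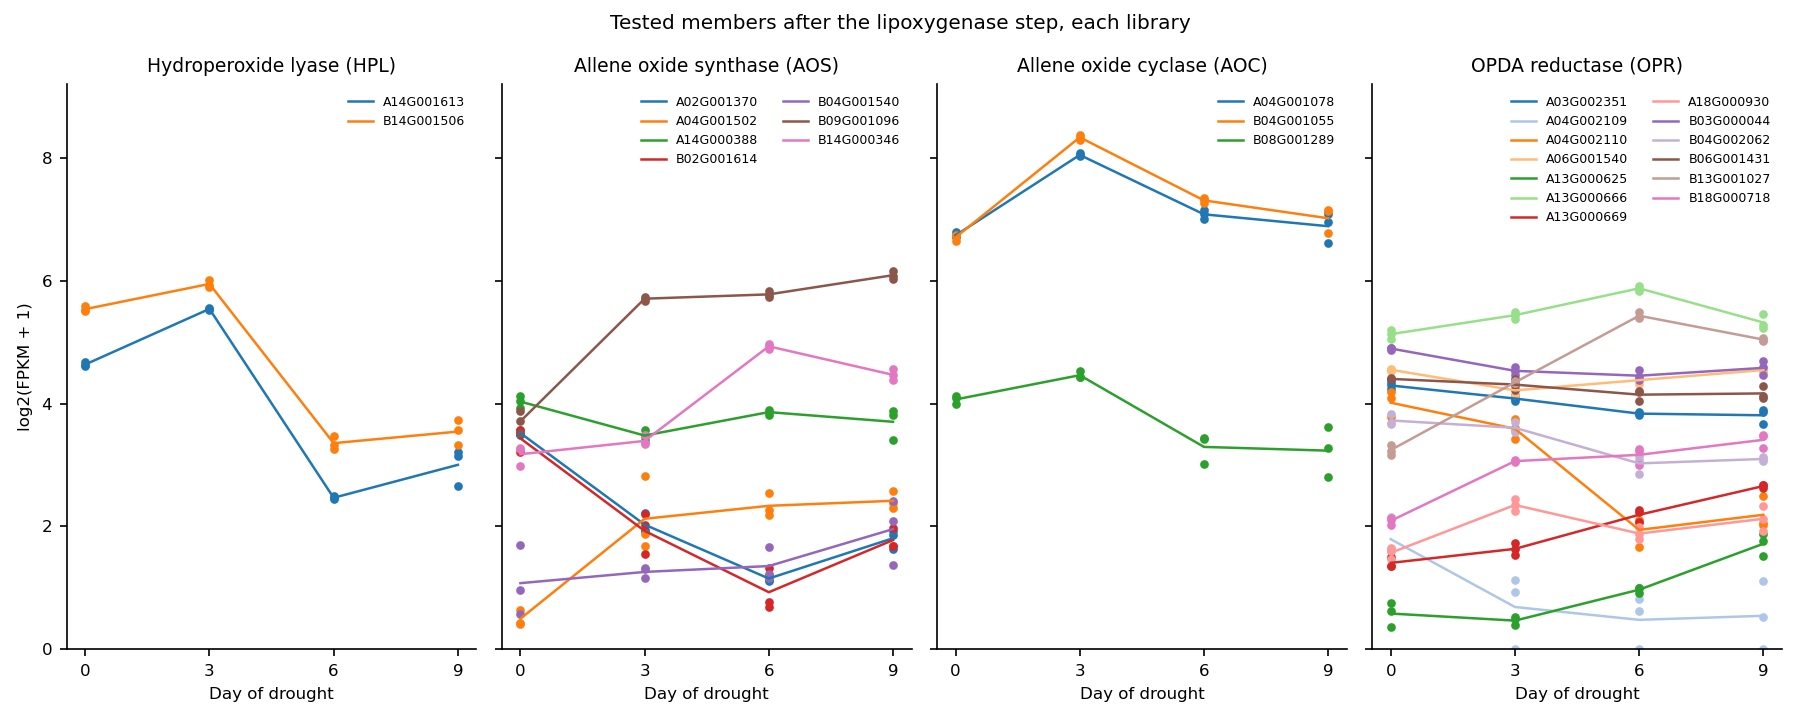
Level of each tested HPL, AOS, AOC and OPR model as log2(FPKM + 1) in each library, against days of drought. The 2 HPL models drop between days 3 and 6, the top AOS model is up from day 3 on, 2 AOC models peak at day 3, and the OPR models spread both up and down.

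AOC, which closes the ring of the jasmonate precursor, showed a day 3 peak like that of the leading lipoxygenases. Summed FPKM over its 5 models was 226 ± 4.36 at day 0, 609 ± 13.2 at day 3, 302 ± 11.6 at day 6 and 257 ± 39.9 at day 9. Pag.B04G001055.v3.1 had FPKM values of 105.10, 99.96 and 105.94 at day 0, 313.52, 331.00 and 324.48 at day 3, 158.81, 152.38 and 162.45 at day 6, and 108.66, 140.84 and 139.64 at day 9. The 4 days did not overlap, though 1 library of day 9 came close to day 0. The rise was 1.63 (SE 0.08), 0.60 (SE 0.08) and 0.31 (SE 0.08), with limma adjusted p-values of 2.02e-08, 3.18e-05 and 0.00441. Pag.A04G001078.v3.1, named after its values were seen, had 106, 264, 135 and 119 FPKM, and rose by 1.31 (SE 0.09) at day 3 and 0.34 (SE 0.09) at day 6. On day 9 its change was 0.15 (limma adjusted p = 0.172, and 0.00036 to 0.604 across the alternatives). The third tested model, Pag.B08G001289.v3.1, had 15.8, 21.1, 8.90 and 8.65 FPKM. It was not called at day 3 (0.40, limma adjusted p = 0.0905, and 0.000844 to 0.201 across the alternatives). Its 3 libraries of that day lay above those of day 0, and it fell by 0.77 and 0.83 (SE 0.18 for each) on days 6 and 9.

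OPR, the family that includes the reductase of the jasmonate precursor 12-oxophytodienoic acid (OPDA), held models that rose and models that fell. The sum over 18 models was 170.2 FPKM at day 0, 174 at day 3, 198 at day 6 and 180 at day 9. Its ratio to day 0 was 1.16 at day 6 and 1.06 at day 9 as deposited, and 1.41 and 1.23 under median-of-ratios scaling. The annotation does not tell the OPR form that acts in jasmonate synthesis from related reductases. Of the 13 tested models, 5 rose and 4 fell at day 3, 6 rose and 7 fell at day 6, and 6 rose and 6 fell at day 9. Set out by chromosome number, after the values were seen, the 6 tested models of chromosomes 13 and 18 were all higher on days 6 and 9. By contrast the 7 tested models of chromosomes 3, 4 and 6 were all called lower at day 6 and 6 of them at day 9, on the values as deposited. All models of chromosomes 13 and 18, 11 with the untested ones, summed to 50.07 ± 1.07, 76.0 ± 2.35, 116 ± 4.16 and 92.6 ± 3.82 FPKM on the 4 days. The 7 of chromosomes 3, 4 and 6 summed to 120.1 ± 0.773, 97.6 ± 4.75, 81.3 ± 0.895 and 87.1 ± 4.37 FPKM.

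Within the rising set, Pag.B13G001027.v3.1 had FPKM values of 9.01, 8.42 and 8.00 at day 0, 19.12, 19.22 and 19.69 at day 3, 40.90, 41.72 and 43.95 at day 6, and 32.68, 31.47 and 31.80 at day 9. None of the days overlapped. Its rise was 1.10 (SE 0.05), 2.19 (SE 0.05) and 1.80 (SE 0.05), with limma adjusted p-values of 4.62e-09, 2.37e-12 and 1.24e-11. Pag.A13G000666.v3.1, the most abundant OPR model, had 34.1, 42.5, 57.9 and 39.1 FPKM. Its rise was 0.75 (SE 0.06) at day 6, and its rise of 0.19 at day 9 (limma adjusted p = 0.0132) lost its call under 2 alternatives. Pag.A13G000669.v3.1, 3 serial numbers further on, had 1.65, 2.11, 3.57 and 5.31 FPKM and was highest at day 9, with a rise of 1.25 (SE 0.08).

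Within the falling set, Pag.A04G002110.v3.1 had FPKM values of 12.68, 17.20 and 15.97 at day 0, 9.74, 12.44 and 11.11 at day 3, 2.15, 3.19 and 3.30 at day 6, and 3.06, 3.16 and 4.61 at day 9. The libraries of days 0 and 3 did not overlap, but the change of -0.42 was not called (limma adjusted p = 0.0525, and 0.00906 to 0.165 across the alternatives). On days 6 and 9 it fell by 2.07 and 1.83 (SE 0.16 for each). Its neighbour Pag.A04G002109.v3.1, named after its values were seen, had 3.45, 2.08 and 2.02 FPKM at day 0 and was listed at 0 in 1 library of each later day. Pag.B03G000044.v3.1 had 28.8, 22.2, 20.9 and 23.0 FPKM, with changes of -0.36, -0.44 and -0.32 (SE 0.06 for each). Under median-of-ratios scaling the falls of Pag.B03G000044.v3.1 and Pag.B06G001431.v3.1 at day 9 were not called. Under the same scaling the day 6 falls of Pag.A06G001540.v3.1 (-0.17) and Pag.B06G001431.v3.1 (-0.26) turned to 0.096 and 0.0065, neither of them called.

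Downstream of OPR, OPCL1 is the ligase that attaches coenzyme A to the reduced product, OPC-8, before beta-oxidation. Its 2 tested models were both lower on days 6 and 9. Pag.A05G002505.v3.1 had 23.0, 33.9, 18.7 and 19.2 FPKM on the 4 days. Its rise at day 3 was 0.54 (SE 0.07, limma adjusted p = 4.56e-05). Its changes of -0.29 and -0.26 on days 6 and 9 had limma adjusted p-values of 0.00214 and 0.00445, which became 0.756 and 0.473 under median-of-ratios scaling. Pag.B05G002516.v3.1 had 17.0, 19.1, 11.0 and 9.08 FPKM and fell by 0.59 and 0.84 (SE 0.07 for each) on days 6 and 9. On day 3 its change was 0.16 (limma adjusted p = 0.102, and 0.0375 to 0.336 across the alternatives).

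Jasmonate O-methyltransferase, which makes the volatile methyl ester of jasmonate, is carried in the table under its enzyme number and had 1 tested model of 3. Pag.A05G002327.v3.1 had FPKM values of 0.81, 0.46 and 0.55 at day 0, 1.77, 1.46 and 1.59 at day 3, 1.92, 1.84 and 1.28 at day 6, and 1.88, 2.09 and 2.59 at day 9. All 9 libraries of the later days lay above those of day 0, at levels close to the filter. The rise was 0.70, 0.74 and 0.99 (SE 0.13 for each), with limma adjusted p-values of 0.000683, 0.000205 and 1.78e-05.

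CEQORH, a quinone oxidoreductase of the chloroplast envelope that the table annotates to this pathway, rose in steps. Pag.B01G003568.v3.1 had 17.1, 23.1, 28.5 and 33.9 FPKM on the 4 days, and its libraries did not overlap between days. Its rise was 0.41, 0.71 and 0.95 (SE 0.04 for each). The other tested model, Pag.A01G003868.v3.1, rose on days 6 and 9. Alpha-dioxygenase (DOX), which oxygenates fatty acids by a separate route, had a single tested model. Pag.B12G000616.v3.1 had 1.81, 1.75, 0.837 and 1.92 FPKM and was called only at day 6, with a change of -0.61 (SE 0.12, limma adjusted p = 0.000472).

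The step from day 3 to day 6 changed more members than any other interval between neighbouring sampling days that was tested. The intervals ranked alike among all tested genes, of which 47.7%, 72.6% and 21.7% were called, in order of time. Of the 58 tested members, 19 were higher at day 6 than at day 3 and 27 lower, beside 25.7% and 46.9% of all tested genes. The 3 largest falls were those of Pag.A01G000345.v3.1 (-3.82, SE 0.13), Pag.B01G000229.v3.1 (-3.37, SE 0.09) and the HPL model Pag.A14G001613.v3.1 (-3.08, SE 0.11). The 3 largest rises were those of Pag.A01G001881.v3.1 (1.70, SE 0.06), Pag.B01G001798.v3.1 (1.64, SE 0.06) and the AOS model Pag.B14G000346.v3.1 (1.54, SE 0.08). Under median-of-ratios scaling 24 members were higher and 24 lower, beside 14821 and 14337 of the 40736 tested genes.

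From day 6 to day 9 changes were small. Of the 58 members, 13 were higher at day 9 and 9 lower, beside 12.9% and 8.73% of all tested genes, 21.7% in all, and none changed by as much as 1 on the log2 scale. Among members with at least 5 FPKM, the largest rises were those of the HPL model Pag.A14G001613.v3.1 (0.54, SE 0.11), the OPR model Pag.A13G000669.v3.1 (0.47, SE 0.08) and the AOS model Pag.B09G001096.v3.1 (0.31, SE 0.08). The first of these was not called under 1 alternative. The largest falls were those of Pag.A13G000666.v3.1 (-0.56, SE 0.06), Pag.A16G001068.v3.1 (-0.52, SE 0.08) and Pag.B16G001086.v3.1 (-0.48, SE 0.07).

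The first library of day 9 was the lowest of its day for 32 of the 58 tested members and the highest for 15. It was also the lowest in the summed FPKM of lipoxygenase, HPL, AOC and OPCL1. For Pag.B01G000230.v3.1 it held 49.07 FPKM against 83.89 and 109.92 in the others, and for Pag.A14G001613.v3.1 it held 5.28 against 7.83 and 8.28.

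Labels of tissue were checked against markers of leaf cells. The 43 gene models named rbcS, LHCB1, LHCB2, LHCA1, psbO, psaD or PRK, which act in photosynthesis of the mesophyll, included 4 listed at 0 throughout. Their summed FPKM lay between 21196 and 21766 at day 0, 10981 and 12327 at day 3, 852 and 868 at day 6, and 773 and 938 at day 9. The 4 models of FAMA, a factor of guard cell formation, summed to 20.0, 14.9, 2.12 and 1.46 FPKM. The other 6 marker names, for phloem and xylem, matched no gene. Both marker sums were lower than at day 0 on days 6 and 9, as were those of HPL and of the lipoxygenase cluster. At day 3 the mesophyll sum stood at 0.539 of day 0 and that of FAMA at 0.745. On that day HPL stood at 1.53 of day 0 and the cluster at 2.91. The part of leaf cell content in the result was not tested. In bulk leaf, fewer cells of a type and less RNA per cell cannot be told apart.

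Outside the 102 members, lists made by gene name covered the supply of substrate and the response to jasmonate. Their counts stand beside shares among all tested genes of 22.6% higher and 25.2% lower at day 3. These shares were 29.2% and 47.6% at day 6, and 30.9% and 46.0% at day 9. Of the 24 omega-3 and omega-6 desaturase models, whose steps together lead to linolenic acid, 19 were tested. On day 3, 9 rose and 4 fell, at day 6, 8 and 8, and at day 9, 11 and 7. These counts pool both types, which differed by name at day 9. Of the 10 tested models named FAD3, FAD7 or FAD8, 7 rose and 3 fell that day. Of the 7 tested FAD2 models 4 rose and 2 fell, and the 2 tested FAD6 models both fell. Of the beta-oxidation genes and ADH1 that the rule leaves out, 37 of 49 were tested, and 24 rose and 1 fell at day 3, 24 and 8 at day 6, and 25 and 6 at day 9. The acyl-CoA oxidases, which shorten the jasmonate precursor in the peroxisome, went from a summed 229 FPKM at day 0 to 497, 627 and 632. On day 3, 15 of their 16 tested models rose.

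The 9-lipoxygenases (LOX1_5), which oxygenate fatty acids at another carbon, were called lower in most models on days 6 and 9. Among all tested genes, 47.6% and 46.0% were lower on those days. Of 10 tested, 5 fell at day 3 and 9 at day 6, and at day 9 there were 9 falls and 1 rise. Their summed FPKM was 126, 94.1, 49.7 and 73.9 on the 4 days. JAR1_4_6, the name for the enzymes that couple jasmonate to isoleucine to give the active hormone, had 4 tested models, all of them lower on days 6 and 9. Their sum was 188, 171, 124 and 105 FPKM. Of the 21 tested JAZ models, the repressors whose genes respond to jasmonate, 15 rose and 4 fell at day 3, 14 and 7 at day 6, and 14 and 6 at day 9. Of 9 tested MYC2 models, a transcription factor of the jasmonate response, 4 rose and 1 fell at day 3. On each of days 6 and 9, 3 rose and 4 fell, close to the shares among all tested genes. Of the 4 tested models of the receptor COI-1, 2 fell at day 3, 1 at day 6 and 2 at day 9.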

How the data were processed

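Leaf RNA of 12 libraries, 3 on each of 4 days of drought, was measured by sequencing. The values deposited by the authors are FPKM, per the name of the deposited table, and summed to between 684857 and 732119 per library. Aligner, genome build and counting program: not given in the sources used here. Read totals were not used. Relative depth was read from the most common ratio of low FPKM values, gene by gene, between the first control library and each other one. It lay between 0.877 and 1.10 of the first control library. That reading takes equal fragment counts to be the most common case among such genes, which was not tested. Genes near 1 FPKM rest on few fragments. Subset tables by day were not used.

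Values were taken as log2(FPKM + 1) for the 40736 genes that reached 1 FPKM in 3 or more libraries. The limma package (3.58.1, intensity trend, robust moderation, R 4.3.3) fitted 1 mean per day over the 12 libraries. P-values were adjusted by the Benjamini-Hochberg method within each of 5 comparisons. Sums by enzyme are descriptions without a test. Sums, counts and figures used pandas 2.3.3, numpy 2.4.6 and matplotlib 3.10.9 under Python 3.11.15. The procedure was tested on simulated data.

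The members and lists were chosen with earlier results of these data known. For each gene name, the member with the highest mean was named. So were the called members with the largest rise and fall against day 0, and the 3 largest each way between later days, among those with a mean of at least 5 FPKM on the higher of the compared days. Other members were named after their values were seen. Alternatives were pseudocounts of 0.1 and 0.5, no filter, a mean of at least 5 FPKM, median-of-ratios scaling and scaling to a sum of 1000000. The others were moderation without intensity trend or robust option, only the days compared, a replicate block and leaving out each library.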

Additional observations from a re-analysis of the deposited data

Results flagged for a closer look

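The change from day 0 differed between days for many members, by the limma test of day 6 against day 3 and of day 9 against day 6. It differed for 46 of the 58 tested members between days 3 and 6 and for 22 between days 6 and 9, where 72.6% and 21.7% of all tested genes did. For 5 members the call was higher on day 3 and lower on day 6, a pattern whose share among all tested genes was not computed. From day 3 to day 6 the log2(FPKM + 1) level changed by -2.43 for the LOX2S model Pag.A01G000354.v3.1 and by -3.37 for the LOX2S model Pag.B01G000229.v3.1. It changed by -3.08 for the HPL model Pag.A14G001613.v3.1, by -2.59 for the HPL model Pag.B14G001506.v3.1 and by -0.83 for the OPCL1 model Pag.A05G002505.v3.1. With 3 libraries a day, no test for a single outlying library was made.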

How the results depend on the processing

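Of 128 called results on named genes, 12 lost their call under at least 1 alternative and none of these changed direction. Of 2295 alternative results on named genes, 16 were called in the same direction where the fit as reported gave no call. With a mean of at least 5 FPKM required, fewer genes were tested, 40 of the members and 23055 of all genes. Then 16 members were higher at day 9 than at day 0, beside 8936 of all genes. At day 9 against day 6, 8 members were higher, beside 3950 of all genes. The genes of the neighbouring lists called lower numbered 12 (day 3), 25 (day 6) and 25 (day 9), beside 6262, 10151 and 9922 of all genes. The summed LOX2S ratio to day 0 was 1.09 (day 6) and 1.05 (day 9) under median-of-ratios scaling, against 0.898 and 0.905. Of all members, 2 called at day 6 against day 0 and 2 called at day 6 against day 3 turned sign under median-of-ratios scaling: Pag.A06G001540.v3.1 (0.096) and Pag.B06G001431.v3.1 (0.0065) in the first, Pag.B06G001431.v3.1 (0.099) and Pag.A03G002351.v3.1 (0.013) in the second. The named changes that turned sign were uncalled in the limma fit as reported, and the cause was not tested. Pag.B03G000044.v3.1 changed by 0.19 from day 3 to day 6 under median-of-ratios scaling (limma adjusted p = 0.0228). From day 6 to day 9, Pag.A06G002670.v3.1 changed by -0.052 and -0.034 under median-of-ratios scaling and scaling to 1000000, and Pag.A05G002505.v3.1 by -0.028 and -0.010. The rest turned sign when a single library was left out. From day 0 to day 3, Pag.B15G000302.v3.1 then ranged from -0.065 to 0.0071 (the latter without day 0 library 1), and Pag.B12G000616.v3.1 from -0.14 to 0.069, turning without day 0 library 2 or day 3 library 3 (0.014). From day 0 to day 9, Pag.B12G000616.v3.1 ranged from -0.054 (without day 0 library 3) to 0.16 and Pag.B01G000230.v3.1 from -0.017 (without day 9 library 2) to 0.56. From day 3 to day 6, Pag.A05G002327.v3.1 ranged from -0.033 (without day 6 library 1) to 0.15, with -0.0078 without day 3 library 2 and -0.013 without day 6 library 2. From day 6 to day 9 the ranges were -0.057 to 0.033 for Pag.B15G000302.v3.1, turning without library 2 of either day (0.022 for day 6), -0.011 to 0.026 for Pag.A06G002670.v3.1 and -0.040 to 0.10 for Pag.A05G002505.v3.1. They were -0.039 to 0.012 for Pag.B01G001798.v3.1 and -0.25 to 0.15 for Pag.B08G001289.v3.1, each turning without any 1 of 3 libraries. For Pag.B01G000230.v3.1 the range was -0.26 to 0.31, the highest without day 9 library 1 (limma adjusted p = 0.0492), with 0.019 without day 6 library 1. Same-numbered libraries of different days showed no shared deviation (r between -0.0268 and 0.0381 over 18 pairs). Nor did differently numbered ones (r between -0.0321 and 0.038 over 36 pairs). A lack of shared deviation cannot decide whether the numbers pair samples. With a replicate block, 24 members were higher and 14 lower at day 3, 25 and 26 at day 6, and 26 and 24 at day 9. Of the 40736 tested genes, 8916 were then higher and 9964 lower at day 3. At day 6 these numbers were 11800 and 19279, and at day 9 12519 and 18601. Depth limits members near 1 FPKM most.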
